A study of Mus musculus with 4 samples.

Results

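The genes described here encode the costimulatory module of the osteoclast lineage that is built on immunoreceptor tyrosine-based activation motifs (ITAMs). They are the lipid and lipoprotein receptor Trem2, the collagen receptor Oscar, the ITAM adaptors Tyrobp (encoding DAP12) and Fcer1g (encoding the Fc receptor gamma chain), the kinases Syk, Btk and Tec, the scaffold Lcp2 (encoding SLP-76) and the phospholipase Plcg2. The 9 genes were chosen by name for their place in this pathway, by a rule that uses no measured value but was set with earlier results of these data known, and 8 of them had a row among the 18276 genes of the deposited table. Oscar was not analysed here. The RNA, selected by its poly(A) tails, was that of osteoclast progenitors, which had been sorted out of freshly taken mouse marrow by surface CD115 and by the lack of B220, CD3 and Mac-1. The 2 Ptip_KO libraries came from B6;129 mice with the genotype Ptip flox/flox Mx-1Cre, and the 2 WT libraries came from B6;129 mice labelled WT Mx-1Cre, so that the Cre transgene was shared by both groups. PTIP, the product of Paxip1, works with the MLL3 and MLL4 enzymes that methylate histone H3 at lysine 4. The Mx1 promoter that drives this Cre responds to interferon and is not restricted to osteoclast progenitors. The labels used here give no age, no induction of the Cre and no statement that replicates were separate animals, so p-values measure the spread between these libraries.

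Osteoclast precursors need a second signal besides RANK to raise calcium and switch on NFATc1, the transcription factor of osteoclast differentiation. Receptors such as TREM2 and OSCAR have short tails without a signalling motif and borrow DAP12 or the Fc receptor gamma chain, whose ITAM tyrosines are phosphorylated by Src family kinases and then bind Syk. Syk, together with SLP-76 and the Tec family kinases Btk and Tec, activates phospholipase C gamma 2. Mice that lack both adaptors have dense bone with few working osteoclasts, and loss of human TREM2 or TYROBP causes Nasu-Hakola disease, with bone cysts and dementia.

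The ITAM is the feature that makes the 2 adaptors docking sites for Syk, and its coding stretch is shown for both in the reading frame of the GENCODE M21 transcript, 5′ to 3′. Capitals mark the tyrosine codons and the leucine or isoleucine codon at the fourth place of each repeat.
Tyrobp: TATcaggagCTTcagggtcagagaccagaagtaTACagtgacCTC
Fcer1g: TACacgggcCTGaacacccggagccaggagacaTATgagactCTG
Each stretch spans 15 codons and 45 bases, with 7 codons between the repeats. On GRCm38 (mm10) the Tyrobp stretch starts at codon 92, lies on the plus strand and is split by an intron into chr7:30415670-30415675 and chr7:30417344-30417382. The Fcer1g stretch starts at codon 65, lies on the minus strand and is likewise split into chr1:171230067-171230072 and chr1:171229889-171229927. A search of the principal coding sequence of each of the 9 genes for this pattern, with 6 to 8 codons between the repeats, found it in 2, Tyrobp and Fcer1g. The pattern was present in 2.85% of the 21562 coding sequences searched, so a match is a description of the letters and not of a working motif.

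The libraries held 67592972 to 77773478 reads in genes, and a gene without a read could have been present at up to 0.0380 to 0.0428 CPM (3 reads, counting error only). Paxip1 stood at 5.10 and 3.73 CPM in Ptip_KO libraries, against 105.6 and 103 CPM in WT libraries, in the direction of the labels. Markers of the sorted progenitors summed to 11760 and 11980 CPM in Ptip_KO libraries and to 10510 and 12270 CPM in WT libraries. The sum does not speak for each marker, since 2 of the 10 were called lower and 0 higher. Among the genes that the gate excludes, Cd3e, Cd3d and Cd3g were below 1 CPM in all 4 libraries, whereas Itgam, which encodes Mac-1, was present at 35.1 to 42.1 CPM. Ptprc was at 453.8 to 608.4 CPM, but it encodes CD45 of all leukocytes, and a value per gene does not show its B220 isoform. WT replicate 2 stood apart from the other libraries in carrying 297.7 CPM of Xist and 0.101 CPM of Ddx3y. The other 3 libraries had at most 0.0814 CPM of Xist and at least 69.1 CPM of Ddx3y. Trem2 and the list counts that it moves are also given without this library.

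Trem2 was the member that passed the test. Its RNA was at 104 and 87.1 CPM in Ptip_KO libraries, against 38.6 and 40.4 CPM in WT libraries. Both Ptip_KO libraries were above both WT libraries, with a gap that was wider than the distance between the 2 libraries of either group. The mean was 95.5 ± 11.98 CPM in Ptip_KO progenitors and 39.5 ± 1.24 CPM in WT progenitors (SD, n = 2 each), a ratio of 2.42. On the log2(CPM + 1) scale the difference was 1.25 ± 0.11 (SE; 95% interval 0.97 to 1.53), with an adjusted p of 0.00658 in limma with Benjamini-Hochberg adjustment over the 12357 genes tested. By this difference Trem2 ranked 73 from the top of all tested genes. Trem2 was past the adjusted threshold of 0.05 in each of 14 alternative settings, which included edgeR (adjusted p = 0.0127) and DESeq2 (adjusted p = 6.84e-20). Without WT replicate 2 the limma difference was 1.28 with an adjusted p of 0.000163, the remaining WT library being assumed to vary like the Ptip_KO pair.

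Across the 8 measured members, limma called 1 higher and 0 lower in Ptip_KO progenitors. The background was 2.43% of all tested genes called higher and 3.86% called lower. These shares hold for the fit to every library. With a library left out the all-gene counts moved too, so list counts from such fits are not to be set against these shares. No further member had an unadjusted p under 0.05, a level that 11.2% of all tested genes reached in the higher and 12.5% in the lower direction. The edgeR test called 1 member higher and 0 lower, against 1.97% and 3.37% of all tested genes, and DESeq2 called 1 higher and 0 lower, against 6.31% and 9.11%. The median difference of the members was -0.05 on the log2(CPM + 1) scale, against 0.0032 for all genes tested. The groups did not overlap in 5 members, 3 of them above and 2 below WT, while 27.7% of all tested genes had both Ptip_KO libraries above and 27.3% both below. In these bulk samples, fewer cells of a type and less RNA per cell cannot be told apart.

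**Figure D1:**
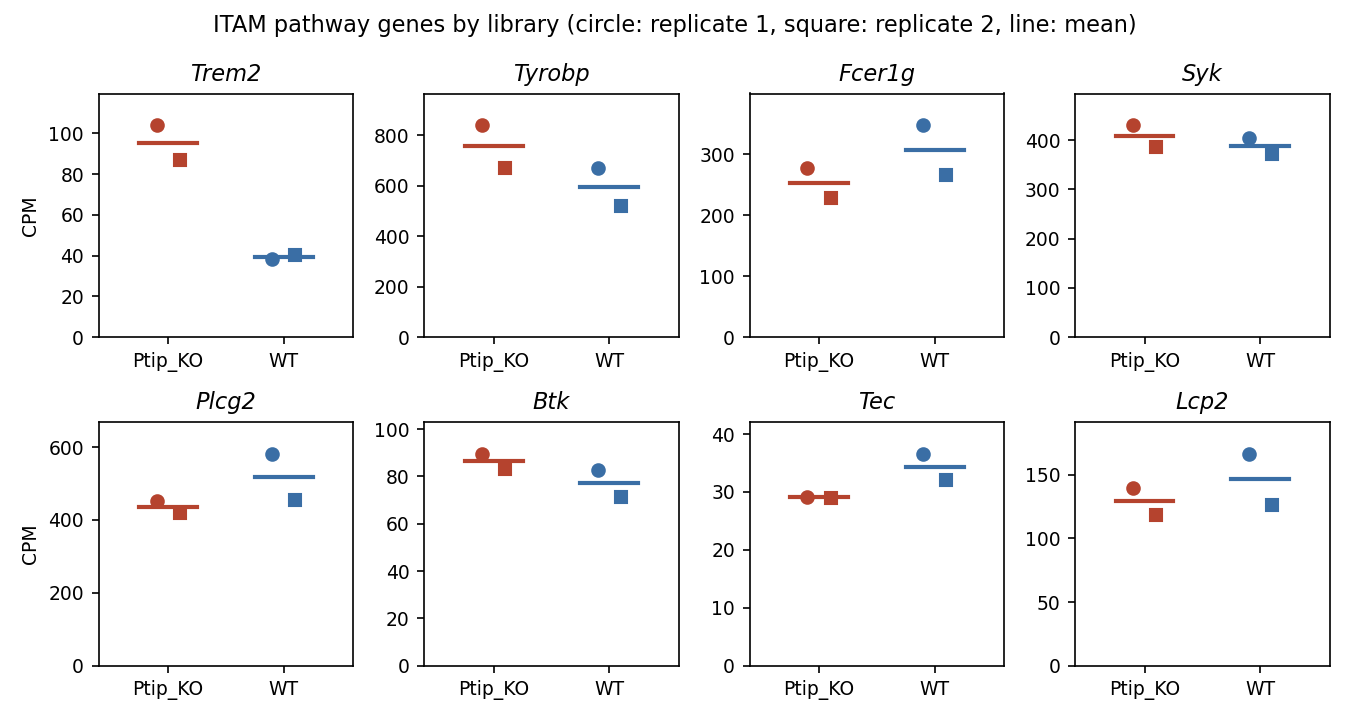
Expression of the 8 measured ITAM pathway genes in each library, in CPM on linear axes that start at 0, with Ptip_KO to the left of WT in each panel; circles are replicate 1, squares are replicate 2 and the line is the mean of the group. Trem2 has the widest gap between the groups, with Ptip_KO libraries at 104 and 87.1 CPM against WT libraries at 38.6 and 40.4 CPM.

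Neither adaptor passed the test, and Tyrobp was the most abundant member in CPM. Tyrobp, the partner that TREM2 needs to reach the cell surface and signal, was at 840.3 and 672.1 CPM in Ptip_KO libraries, against 671.5 and 521.8 CPM in WT libraries. The lower Ptip_KO library was barely above the higher WT library. The mean was 756.2 ± 119 CPM in Ptip_KO and 596.6 ± 106 CPM in WT progenitors (SD, n = 2 each), and the log2 difference was 0.34 ± 0.17 (SE; 95% interval -0.08 to 0.77; limma with Benjamini-Hochberg adjustment, adjusted p = 0.297). Fcer1g, the partner of OSCAR, of activating Fc receptors and of many C-type lectins, was at 277.6 and 228.7 CPM in Ptip_KO libraries, against 347.3 and 266.4 CPM in WT libraries. The groups overlapped, and the log2 difference was -0.27 ± 0.16 (SE; 95% interval -0.67 to 0.13; limma with Benjamini-Hochberg adjustment, adjusted p = 0.382). These intervals leave room for changes of either adaptor in both directions.

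**Figure D2:**
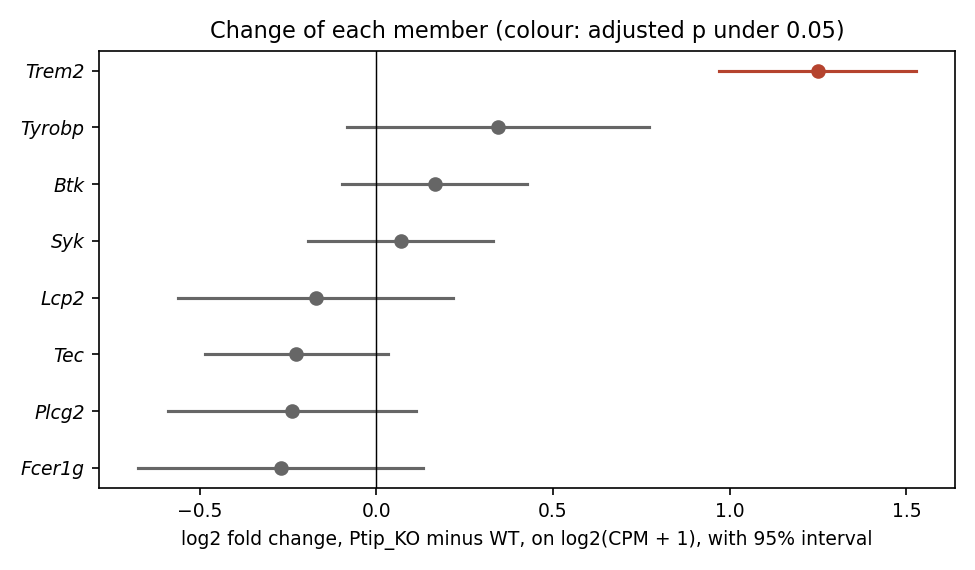
Log2 difference of each measured member, Ptip_KO minus WT, on the log2(CPM + 1) scale, with the 95% interval from limma. The interval of Trem2 runs from 0.97 to 1.53, and the intervals of the other 7 members include 0.

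None of the 3 kinases among the members passed the test. Syk, the kinase that docks on both adaptors, was at 430.2 and 385.1 CPM in Ptip_KO libraries, against 404.7 and 371.7 CPM in WT libraries, with a log2 difference of 0.07 ± 0.11 (SE; 95% interval -0.19 to 0.33). The libraries of both groups interleaved. Btk, a Tec family kinase, was at 89.6 and 83.1 CPM in Ptip_KO libraries, against 82.6 and 71.4 CPM in WT libraries, with a log2 difference of 0.17 ± 0.11 (SE; 95% interval -0.10 to 0.43). The groups were separated only by the distance from 83.1 to 82.6 CPM. Btk lies on the X chromosome, and its lowest value was in WT replicate 2, the library with Xist RNA. This was not particular to Btk, since Tyrobp on chromosome 7 and Syk on chromosome 13 also had their lowest values there. Without that library the log2 difference of Btk was 0.06. Tec, the founding member of the same kinase family, was at 29.2 and 29.0 CPM in Ptip_KO libraries, against 36.6 and 32.0 CPM in WT libraries, with a log2 difference of -0.23 ± 0.10 (SE; 95% interval -0.49 to 0.03). Both Ptip_KO libraries were below both WT libraries, and Tec was the least abundant member. The adjusted p-values of limma with Benjamini-Hochberg adjustment were 0.744 for Syk, 0.408 for Btk and 0.262 for Tec.

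The scaffold and the phospholipase had small differences with negative signs that did not pass the test. Lcp2, the scaffold that brings Tec kinases to their substrate, was at 139.5 and 118.7 CPM in Ptip_KO libraries, against 166.5 and 126.4 CPM in WT libraries, with a log2 difference of -0.17 ± 0.16 (SE; 95% interval -0.56 to 0.22; limma with Benjamini-Hochberg adjustment, adjusted p = 0.566). The groups overlapped, and exons of Lcp2 overlap the opposite-strand gene 4930469K13Rik, whose reads could be counted with it if counting ignored strand. Plcg2, the lipase that makes the second messengers for calcium release, was at 451.2 and 420.3 CPM in Ptip_KO libraries, against 581.5 and 454.3 CPM in WT libraries, with a log2 difference of -0.24 ± 0.14 (SE; 95% interval -0.59 to 0.11; limma with Benjamini-Hochberg adjustment, adjusted p = 0.376). Both Ptip_KO libraries were below both WT libraries by a margin that was small beside the distance between the 2 WT libraries. The signs of Syk and Lcp2 each turned when 1 library was left out: Syk was at -0.01 without Ptip_KO replicate 1, and Lcp2 was at 0.03 without WT replicate 1.

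Per kilobase of the principal transcript, Tyrobp stood first at 1341 ± 211 CPM per kb in Ptip_KO and 1058 ± 188 in WT progenitors (SD, n = 2 each). Fcer1g followed at 375.6 ± 51.3 CPM per kb in Ptip_KO and 455.3 ± 84.8 in WT progenitors, and Plcg2 at 101.4 ± 5.09 in Ptip_KO and 120.5 ± 20.9 in WT progenitors. The adaptors were thus well above the receptor and the enzymes they serve. Trem2 was at 87.8 ± 11.0 CPM per kb in Ptip_KO progenitors, where its SD range overlapped those of Plcg2 and of Syk at 76.0 ± 5.95. In WT progenitors Trem2 was at 36.3 ± 1.14 CPM per kb, below Plcg2 and below Syk at 72.4 ± 4.36, and its SD range overlapped that of Lcp2 at 40.2 ± 7.79. Lcp2 at 35.4 ± 4.04 and Btk at 34.0 ± 1.81 CPM per kb in Ptip_KO progenitors were not separated beyond their SDs. Tec was last at 11.0 ± 0.0418 CPM per kb in Ptip_KO and 12.9 ± 1.22 in WT progenitors. The place of Trem2 depends on the length used, since its principal transcript has 1088 bases and the union of all its annotated exons has 4946. By union exon length Trem2 was at 19.3 CPM per kb in Ptip_KO and 7.98 in WT progenitors, below Btk in both groups (27.4 in Ptip_KO and 24.5 in WT).

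Ratios of members within a library do not depend on how libraries are scaled, and they were looked at after the values were seen, so no test is given. For every 100 Tyrobp reads there were 33.0 and 34.0 Fcer1g reads in Ptip_KO libraries, against 51.7 and 51.1 in WT libraries. The replicates of a group lay close together and the groups apart. The mean of log2(Fcer1g/Tyrobp) was -1.58 ± 0.030 in Ptip_KO and -0.96 ± 0.013 in WT progenitors (SD, n = 2 each), a difference of -0.62. Both adaptors had the higher value in replicate 1 of both groups, as did 7 of the 8 members and 42.3% of all tested genes, and this shared step cancels in the ratio. Trem2 reads per 100 Tyrobp reads numbered 12.4 and 13.0 in Ptip_KO libraries, against 5.75 and 7.73 in WT libraries. Trem2 per 100 Fcer1g reads numbered 37.5 and 38.1 in Ptip_KO libraries, against 11.1 and 15.1 in WT libraries. Plcg2 per 100 Tyrobp reads numbered 53.7 and 62.5 in Ptip_KO libraries, against 86.6 and 87.1 in WT libraries. Lcp2 per 100 Tyrobp reads numbered 16.6 and 17.7 in Ptip_KO libraries, against 24.8 and 24.2 in WT libraries. Among the 7 members set against Tyrobp, Trem2 had both Ptip_KO ratios above WT and 5 members had both below. Of all tested genes, 3.58% had both ratios to Tyrobp above WT and 53.6% had both below, so a lower ratio to Tyrobp was the common case and not particular to Fcer1g or the other 4. The groups of Btk overlapped, at 10.7 and 12.4 in Ptip_KO and 12.3 and 13.7 in WT libraries. Tyrobp per 100 reads of Csf1r, the receptor that marks the sorted cells, numbered 101.8 and 85.9 in Ptip_KO and 99.2 and 86.1 in WT libraries, so these groups interleaved.

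**Figure D3:**
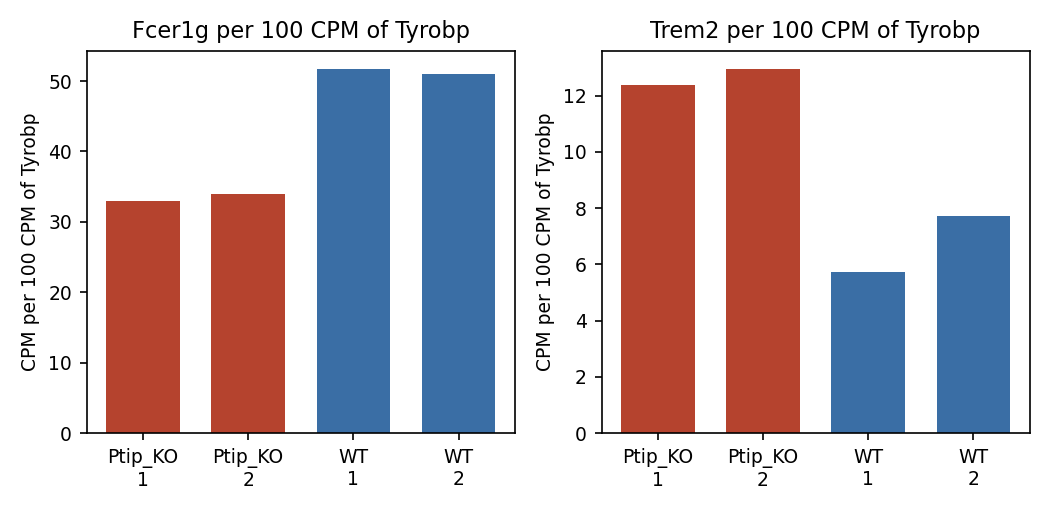
CPM of Fcer1g (left panel) and of Trem2 (right panel) per 100 CPM of Tyrobp, which equals reads per 100 reads; each bar is a library, with Ptip_KO to the left of WT. Fcer1g is at 33.0 and 34.0 in Ptip_KO and at 51.7 and 51.1 in WT libraries, while Trem2 is at 12.4 and 13.0 in Ptip_KO and at 5.75 and 7.73 in WT libraries.

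Trem2 lies in a cluster of TREM family genes on chromosome 17, and none of the other tested genes of the cluster rose. Trem1, an activating DAP12-linked receptor that amplifies inflammatory responses, fell to 8.20 and 7.57 CPM in Ptip_KO libraries, against 19.0 and 29.8 CPM in WT libraries (log2 difference -1.48 ± 0.21 SE; limma with Benjamini-Hochberg adjustment, adjusted p = 0.0222, and 0.0505 after rescaling to a common sum). Treml4, which is also DAP12-linked, fell to 1.33 and 1.03 CPM in Ptip_KO libraries, against 4.11 and 3.46 CPM in WT libraries (log2 difference -1.14; limma with Benjamini-Hochberg adjustment, adjusted p = 0.0244, and 0.0868 without Ptip_KO replicate 2). In both genes every Ptip_KO library was below every WT library. Trem3 was at 42.8 and 43.8 CPM in Ptip_KO libraries, against 34.3 and 36.7 CPM in WT libraries, and did not pass the test (limma with Benjamini-Hochberg adjustment, adjusted p = 0.138). Treml2 was at 127.6 and 122 CPM in Ptip_KO libraries and at 95.7 and 126.9 CPM in WT libraries, which overlapped. Treml1, a platelet gene, was below the filter on low values. Trem2 reads per 100 Trem1 reads numbered 1269 and 1151 in Ptip_KO libraries, against 203.5 and 135.5 in WT libraries. All these genes lie on the plus strand, and Trem1 starts 113.6 kb before Trem2.

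**Figure D4:**
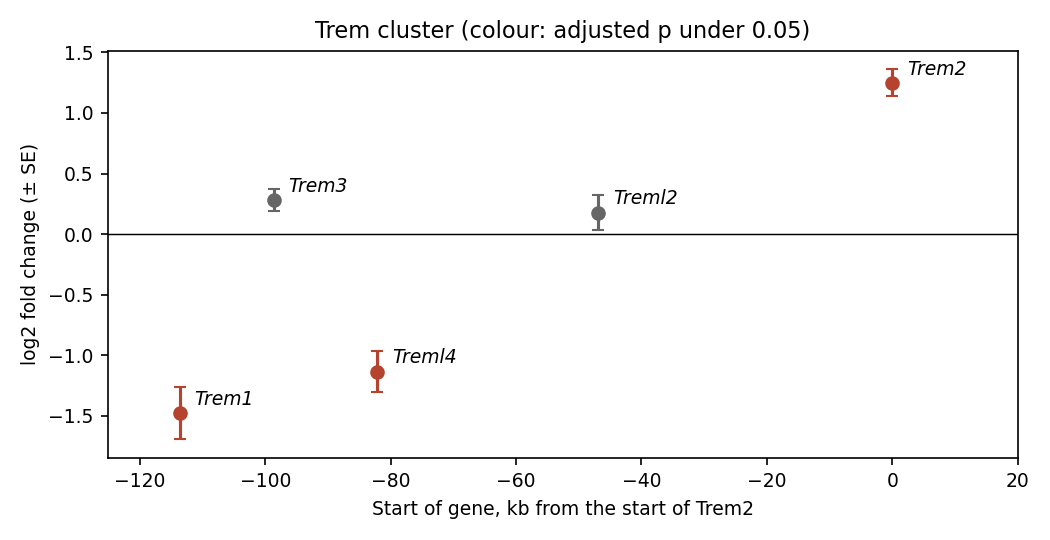
Log2 difference (Ptip_KO minus WT, on log2(CPM + 1), ± SE) of the 5 tested genes of the Trem cluster, against the distance of each gene start from that of Trem2 in kb; colour marks an adjusted p under 0.05 in limma. Trem2 is at 1.25, Trem1 at -1.48 and Treml4 at -1.14, and Trem3 and Treml2 are not past the threshold.

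The promoters of the 2 genes of this cluster with the largest differences are shown because they moved in opposite directions. Each window runs from 250 bases before to 50 bases after the RefSeq start site on GRCm38.p6, plus strand, 5′ to 3′, at chr17:48346151-48346450 for Trem2 and chr17:48232489-48232788 for Trem1. Capitals mark matches to 3 motifs searched on both strands. These were GAGGAA, a core bound by PU.1 and other ETS factors, TGANTCA, and TTGCNNAA, a C/EBP type motif. TGANTCA is a loose form of the AP-1 motif, whose usual central base is C or G. The matches do not overlap each other.
Trem2: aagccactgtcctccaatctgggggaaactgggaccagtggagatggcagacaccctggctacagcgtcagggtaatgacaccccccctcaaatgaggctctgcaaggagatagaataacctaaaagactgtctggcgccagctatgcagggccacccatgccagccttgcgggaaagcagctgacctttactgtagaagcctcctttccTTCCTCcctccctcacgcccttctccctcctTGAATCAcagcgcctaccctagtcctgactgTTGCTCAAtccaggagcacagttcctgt
Trem1: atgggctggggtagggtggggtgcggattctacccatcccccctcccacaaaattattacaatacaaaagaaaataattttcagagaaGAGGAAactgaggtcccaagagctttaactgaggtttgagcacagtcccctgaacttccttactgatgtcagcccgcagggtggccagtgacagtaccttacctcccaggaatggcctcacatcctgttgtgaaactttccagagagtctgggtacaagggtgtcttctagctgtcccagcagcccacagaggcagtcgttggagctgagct
Trem2 had GAGGAA on the reverse strand (written TTCCTC) starting 40 bases before the start site, TGAATCA starting 9 bases before it, and TTGCTCAA from base 23 of the transcript. With A at its centre, TGAATCA is not the usual AP-1 site. Trem1 had GAGGAA starting 162 bases before the start site and neither of the other motifs. Of 32851 promoters of the same length, 28.3% held GAGGAA, 7.81% TGANTCA and 10.8% TTGCNNAA. Of the 8 members with a promoter entry, GAGGAA was also found in Oscar, Lcp2, Btk and a second promoter of Syk, and the other motifs were found in Trem2 alone. These matches are descriptions of letters in a short window, and no binding was measured here.

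The other receptors that borrow DAP12 or the Fc receptor gamma chain included 7 that fell and 0 that rose among 22 tested, with a median log2 difference of -0.72. That is 31.8% of the list lower, against the background of 3.86% of all tested genes. At an unadjusted p under 0.05 limma had 11 of these receptors lower and 2 higher, the all-gene shares being 12.5% and 11.2%, edgeR called 6 lower and 0 higher, and DESeq2 10 lower and 0 higher. The limma count of receptors that fell was 12 without WT replicate 1, 10 without WT replicate 2 and 4 after rescaling to a common sum. Both Ptip_KO libraries were below both WT libraries in 14 of the 22, against 27.3% of all tested genes. Lilra6, an activating immunoglobulin-like receptor, fell to 30.5 and 21.5 CPM in Ptip_KO libraries, against 118.3 and 84.7 CPM in WT libraries (log2 difference -1.92; limma with Benjamini-Hochberg adjustment, adjusted p = 0.0122). Cd300ld, an activating CD300 family receptor, fell to 5.50 and 2.71 CPM in Ptip_KO libraries, against 19.6 and 22.3 CPM in WT libraries (log2 difference -2.16; limma with Benjamini-Hochberg adjustment, adjusted p = 0.0156). Pilrb1, a DAP12-linked paired receptor, fell to 3.15 and 2.13 CPM in Ptip_KO libraries, against 10.3 and 9.90 CPM in WT libraries, and its relative Pilrb2 fell to 3.31 and 2.27 CPM in Ptip_KO libraries, against 10.2 and 11.98 CPM in WT libraries. Clec4e, the gamma chain-linked lectin Mincle, fell to 15.3 and 11.0 CPM in Ptip_KO libraries, against 22.8 and 25.8 CPM in WT libraries (limma with Benjamini-Hochberg adjustment, adjusted p = 0.0483, 0.0615 in edgeR, and 0.124 in limma without Ptip_KO replicate 2). The 7 were completed by Trem1 and Clec4b1, of which Clec4b1 is named after its values were seen and lost its call without either Ptip_KO library (limma with Benjamini-Hochberg adjustment, adjusted p of 0.0881 and 0.0937). Lilra6, Pilrb1, Pilrb2, Cd300ld and Clec4b1 have near-identical copies in the genome, so the division of reads among relatives is uncertain.

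Markers of cells other than the sorted progenitors were also read in these libraries, and some of them differed between the groups. Whether their RNA came from other cells or from the progenitors themselves was not tested. The counts of markers that fell or rose stand against 3.86% lower and 2.43% higher of all tested genes. The 11 macrophage markers summed to 42.0 and 42.2 CPM in Ptip_KO libraries, against 165.1 and 125.3 CPM in WT libraries, and 6 of the 9 tested fell and 0 rose. C1qa, one of their defining genes, was near 0 at 0.158 and 0.143 CPM in Ptip_KO libraries, against 3.19 and 3.79 CPM in WT libraries. The 9 neutrophil markers summed to 1778 and 1770 CPM in Ptip_KO libraries, against 2740 and 4756 CPM in WT libraries, and 1 of the 9 fell. The 8 erythroid markers summed to 630.7 and 826 CPM in Ptip_KO libraries, against 1593 and 4015 CPM in WT libraries, and 5 of the 8 fell. The 9 dendritic cell markers summed to 187.7 and 166.9 CPM in Ptip_KO libraries, against 208.4 and 189.7 CPM in WT libraries, and of 8 tested 3 fell and 1 rose. Zbtb46, a transcription factor of classical dendritic cells, fell to 0.972 and 1.30 CPM in Ptip_KO libraries, against 6.96 and 5.03 CPM in WT libraries, and H2-Aa, a class II antigen presentation gene, fell to 6.95 and 7.17 CPM in Ptip_KO libraries, against 37.9 and 21.0 CPM in WT libraries. The third that fell was Itgax, and Tcf4, a factor of plasmacytoid dendritic cells, rose to 104.7 and 103.9 CPM in Ptip_KO libraries, against 55.5 and 64.4 CPM in WT libraries. None of the tested markers fell among 3 of NK cells, 3 of B cells, 7 of basophils and mast cells, and 2 of megakaryocytes. Of these, 1 B cell marker rose. The part of any of these cells in the falls of the receptors was not tested. Macrophages and microglia are cell types known for Trem2. The 4 microglia markers in the table summed to 169.2 and 150.5 CPM in Ptip_KO libraries and to 166.1 and 141.7 CPM in WT libraries. Of these 4 markers 1 fell and 0 rose. The part of either cell type in the Trem2 result was not tested. Within the sort itself, 2 of the 10 tested progenitor markers were called lower and 0 higher, and Csf1r of this list was above WT in both Ptip_KO libraries without passing. Kit fell to 14.4 and 16.1 CPM in Ptip_KO libraries, against 49.5 and 73.1 CPM in WT libraries, and Flt3 fell to 42.8 and 34.5 CPM in Ptip_KO libraries, against 67.6 and 77.8 CPM in WT libraries. Both encode receptors of early progenitors, and the part of such cells in the Trem2 result was not tested. Of the 8 mature osteoclast markers listed, 5 were in the table and 3 of these, Ctsk, Ocstamp and Atp6v0d2, were below 1 CPM in all 4 libraries. Of the other 2, Acp5, which encodes the acid phosphatase TRAP, fell to 3.86 and 4.64 CPM in Ptip_KO libraries, against 8.90 and 10.1 CPM in WT libraries (limma with Benjamini-Hochberg adjustment, adjusted p = 0.0229, and 0.0721 without Ptip_KO replicate 1). Mmp9, a matrix protease that neutrophils also carry, was at 135 and 34.8 CPM in Ptip_KO libraries and at 178.7 and 287.2 CPM in WT libraries, and did not pass.

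The adaptor DAP10 and the membrane partners of DAP12 in osteoclasts formed a list in which 0 of 6 tested genes passed in limma, with 2 higher and 0 lower at an unadjusted p under 0.05, and edgeR called 0 and DESeq2 1. Of all tested genes, limma called 2.43% higher and 3.86% lower, edgeR 1.97% and 3.37%, and DESeq2 6.31% and 9.11%. At an unadjusted p under 0.05 limma had 11.2% of all tested genes higher and 12.5% lower. Hcst, which encodes DAP10 and neighbours Tyrobp, was at 7.79 and 6.74 CPM in Ptip_KO libraries and at 8.71 and 8.01 CPM in WT libraries. Csf1r, the M-CSF receptor that signals in part through DAP12, was at 825 and 782.4 CPM in Ptip_KO libraries, against 677 and 605.8 CPM in WT libraries (adjusted p = 0.149 in limma with Benjamini-Hochberg adjustment and 0.00317 in DESeq2). Plxna1, which forms a complex with TREM2 and DAP12 on binding Sema6d, was at 9.97 and 10.4 CPM in Ptip_KO libraries, against 8.19 and 6.38 CPM in WT libraries (adjusted p = 0.151 in limma with Benjamini-Hochberg adjustment, and 0.0369 without WT replicate 1). Sirpb1a, a DAP12-linked receptor with near-identical copies, was at 1.27 and 0.971 CPM in Ptip_KO libraries, against 3.98 and 1.45 CPM in WT libraries, and passed without WT replicate 2 (limma with Benjamini-Hochberg adjustment, adjusted p = 0.00453). Among 4 tested receptor chains with an ITAM or half-ITAM of their own, Cd79b, a B cell receptor chain, rose to 52.4 and 49.1 CPM in Ptip_KO libraries, against 27.0 and 34.9 CPM in WT libraries (limma with Benjamini-Hochberg adjustment, adjusted p = 0.0454, 0.0663 in edgeR, and 0.133 and 0.0836 in limma without Ptip_KO replicate 1 or 2). Its partner Cd79a was at 2.13 and 1.499 CPM in Ptip_KO libraries and at 1.13 and 4.54 CPM in WT libraries, and Clec9a, a dendritic cell receptor for dead cells, was at 6.16 and 7.12 CPM in Ptip_KO libraries and at 7.79 and 8.66 CPM in WT libraries.

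Genes that restrain ITAM signalling included 7 that fell and 2 that rose among 31 tested inhibitory receptors and phosphatases, with a median log2 difference of -0.17. That is 22.6% lower and 6.45% higher, against 3.86% and 2.43% of all tested genes. At an unadjusted p under 0.05 there were 11 lower and 2 higher, edgeR called 6 lower and 2 higher, and DESeq2 11 lower and 2 higher. The limma count of genes that fell was 4 without Ptip_KO replicate 2 and 10 without WT replicate 2, and that of genes that rose was 1 without Ptip_KO replicate 1 and 4 without WT replicate 1. Inppl1, the lipid phosphatase SHIP2, fell to 13.4 and 15.4 CPM in Ptip_KO libraries, against 140.5 and 129.9 CPM in WT libraries (log2 difference -3.15; limma with Benjamini-Hochberg adjustment, adjusted p = 0.000383), and its exons overlap opposite-strand genes. Dok2, an adaptor that dampens tyrosine kinase signals, rose to 31.8 and 30.8 CPM in Ptip_KO libraries, against 8.05 and 9.30 CPM in WT libraries (log2 difference 1.74; limma with Benjamini-Hochberg adjustment, adjusted p = 0.00398). Fcgr2b, the inhibitory IgG receptor, fell to 57.8 and 56.9 CPM in Ptip_KO libraries, against 98.2 and 101.7 CPM in WT libraries. Lilrb4a, an inhibitory receptor of myeloid cells, fell to 16.0 and 15.9 CPM in Ptip_KO libraries, against 41.3 and 53.4 CPM in WT libraries. Pilra, the inhibitory partner of Pilrb1, fell to 9.16 and 4.37 CPM in Ptip_KO libraries, against 27.5 and 23.5 CPM in WT libraries. Pilra has near-identical copies in Pilrb1 and Pilrb2, and Lilrb4a in Lilr4b, so the division of reads among these genes is uncertain. Exons of Lilrb4a also overlap those of Gm49339, which is annotated at the same place on the same strand. Cd22, an inhibitory lectin of B cells, fell to 2.86 and 2.36 CPM in Ptip_KO libraries, against 5.87 and 9.49 CPM in WT libraries. The call of Cd22 was lost in 5 of the alternatives, edgeR among them (adjusted p = 0.0571). Ptpn6, the phosphatase SHP-1, was at 635.5 and 574.2 CPM in Ptip_KO libraries and at 729.6 and 548.3 CPM in WT libraries, and Inpp5d, the phosphatase SHIP1, was at 382.6 and 378 CPM in Ptip_KO libraries and at 360.5 and 322.7 CPM in WT libraries. Neither phosphatase passed the test. Among the remaining calls, Siglece, an inhibitory lectin that binds sialic acid, rose to 44.6 and 35.9 CPM in Ptip_KO libraries, against 25.7 and 22.3 CPM in WT libraries (adjusted p = 0.0447 in limma with Benjamini-Hochberg adjustment, and 0.158 without Ptip_KO replicate 1). Clec12a, an inhibitory lectin of myeloid cells, fell to 229 and 201.8 CPM in Ptip_KO libraries, against 318 and 304.1 CPM in WT libraries (adjusted p = 0.0426 in limma with Benjamini-Hochberg adjustment). Its call was lost without either Ptip_KO library. The last gene that fell was Clec4a2, at 24.3 and 21.5 CPM in Ptip_KO libraries, against 74.2 and 42.3 CPM in WT libraries. The adjusted p of Clec4a2 was 0.0498 in limma with Benjamini-Hochberg adjustment, 0.0542 in edgeR, and 0.0609 in limma after rescaling to a common sum. Clec4a2 and Clec4b1 are near-identical copies, so the division of reads between them is uncertain. Ptpn6, Inpp5d, Siglece, Clec12a and Clec4a2 were named after their values were seen.

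Downstream of the adaptors, 1 of 16 tested kinases fell (6.25%) and 0 rose, against 3.86% lower and 2.43% higher of all tested genes. At an unadjusted p under 0.05 limma had 4 kinases lower and 0 higher, the all-gene shares being 12.5% and 11.2%. The edgeR test called 1 lower and 0 higher, and DESeq2 4 lower and 0 higher. Without WT replicate 1 limma called 2 kinases lower, and without WT replicate 2 it called 3. The kinase that fell was Prkcb, a protein kinase C, at 19.2 and 17.5 CPM in Ptip_KO libraries, against 62.1 and 43.5 CPM in WT libraries (log2 difference -1.45; limma with Benjamini-Hochberg adjustment, adjusted p = 0.0146). Fyn, a Src family kinase, was at 26.7 and 29.0 CPM in Ptip_KO libraries, against 39.7 and 36.1 CPM in WT libraries (limma with Benjamini-Hochberg adjustment, adjusted p = 0.0712, and 0.0298 without WT replicate 2). Pik3cb, a PI 3-kinase subunit, was at 19.9 and 18.2 CPM in Ptip_KO libraries, against 26.0 and 24.7 CPM in WT libraries. Of 20 tested scaffolds, exchange factors and lipases 2 fell (10%) and 0 rose, against the same 3.86% and 2.43% of all tested genes. There were 4 lower and 2 higher at an unadjusted p under 0.05, 2 lower and 0 higher in edgeR, and 3 lower and 1 higher in DESeq2. Without WT replicate 1 limma called 4 lower, and without WT replicate 2 it called 1 higher. Grap2, which encodes the SLP-76 partner GADS, fell to 5.15 and 5.48 CPM in Ptip_KO libraries, against 16.9 and 13.9 CPM in WT libraries (log2 difference -1.37; limma with Benjamini-Hochberg adjustment, adjusted p = 0.00937). Vav2, a guanine nucleotide exchange factor, fell to 21.7 and 20.9 CPM in Ptip_KO libraries, against 42.9 and 39.3 CPM in WT libraries (log2 difference -0.92; limma with Benjamini-Hochberg adjustment, adjusted p = 0.0111). Gab2, a docking protein needed for osteoclast formation in mice, was at 65.2 and 63.9 CPM in Ptip_KO libraries, against 50.9 and 52.6 CPM in WT libraries (limma with Benjamini-Hochberg adjustment, adjusted p = 0.0907).

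In the calcium and NFATc1 arm 1 of 20 tested genes fell and 1 rose, and the median log2 difference was 0.05. That is 5% in each direction, against 3.86% lower and 2.43% higher of all tested genes. Without WT replicate 1 limma called 3 higher. Tmem178, a membrane protein that limits calcium signals and osteoclast formation in mice, fell to 0.525 and 0.228 CPM in Ptip_KO libraries, against 6.59 and 6.99 CPM in WT libraries (log2 difference -2.51; limma with Benjamini-Hochberg adjustment, adjusted p = 0.00462). Itpr2, a calcium release channel of the endoplasmic reticulum, rose to 56.4 and 57.4 CPM in Ptip_KO libraries, against 32.4 and 36.6 CPM in WT libraries (log2 difference 0.71; limma with Benjamini-Hochberg adjustment, adjusted p = 0.0198, and 0.0605 and 0.0620 without Ptip_KO replicate 1 or 2). In both genes the groups were well apart. Ppp3ca, a calcineurin subunit, was at 182.2 and 165.9 CPM in Ptip_KO libraries and at 161.4 and 148.5 CPM in WT libraries. Nfatc1, named after its values were seen, was at 88.1 and 79.2 CPM in Ptip_KO libraries and at 81.1 and 60.4 CPM in WT libraries (limma with Benjamini-Hochberg adjustment, adjusted p = 0.393).

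**Figure D5:**
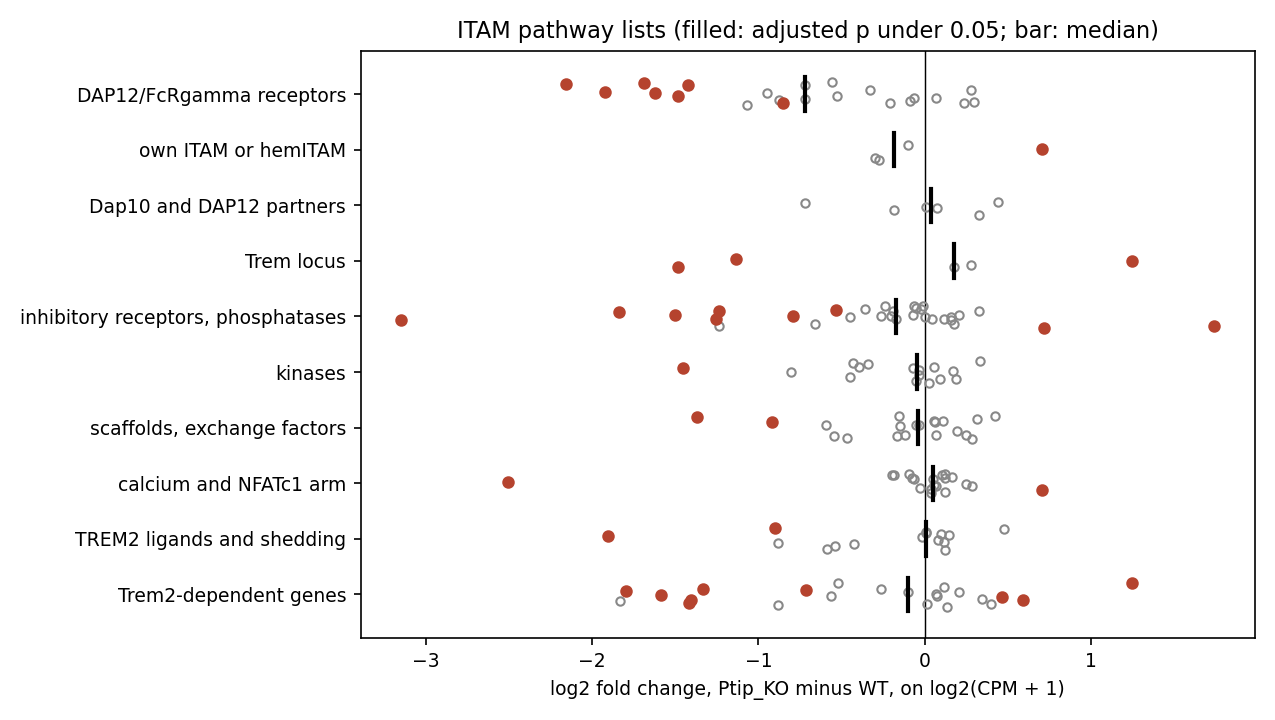
Log2 difference (Ptip_KO minus WT, on log2(CPM + 1)) of every tested gene of 10 lists around the ITAM pathway; filled points have an adjusted p under 0.05 in limma and the bar is the median of the list. The receptors that pair with DAP12 or the Fc receptor gamma chain have a median of -0.72, while the medians of the other lists lie between -0.18 and 0.18.

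Genes for TREM2 ligands, for its shedding and for the MS4A proteins linked to soluble TREM2 in humans included 2 that fell and 0 that rose among 15 tested. That is 13.3% lower, against 3.86% of all tested genes. There were 6 lower and 0 higher at an unadjusted p under 0.05, 3 lower and 0 higher in edgeR, and 6 lower and 0 higher in DESeq2. The 2 that limma called were Ms4a6d, at 8.03 and 5.44 CPM in Ptip_KO libraries against 33.6 and 22.6 CPM in WT libraries, and Ms4a6b. Ms4a6b was at 64.1 and 63.0 CPM in Ptip_KO libraries against 143.5 and 99.5 CPM in WT libraries (adjusted p = 0.0444 in limma with Benjamini-Hochberg adjustment). Its call was lost without either Ptip_KO library. The limma count of genes that fell was 1 without Ptip_KO replicate 2, and without WT replicate 2 it was 5, with 1 that rose. The proteases that release soluble TREM2 did not pass the test, with Adam10 at 156.4 and 147 CPM in Ptip_KO libraries and 159.2 and 147.3 CPM in WT libraries, and Adam17 at 141.1 and 125.4 CPM in Ptip_KO libraries and 136.6 and 115.3 CPM in WT libraries. Both were named after their values were seen. Hspd1, a chaperone reported as a ligand, was at 193.5 and 201.8 CPM in Ptip_KO libraries, against 274.9 and 255.6 CPM in WT libraries (limma with Benjamini-Hochberg adjustment, adjusted p = 0.0547, 0.0498 in edgeR, and 0.0245 in limma without WT replicate 2). The genes that depend on Trem2 in microglia and lipid-laden macrophages of mice had calls in both directions. Of 23 tested, 6 fell and 3 rose, Trem2 itself included, with a median log2 difference of -0.10. That is 26.1% lower and 13% higher, against 3.86% and 2.43% of all tested genes. Axl, a receptor for dying cells, fell to 4.57 and 4.68 CPM in Ptip_KO libraries, against 12.01 and 14.5 CPM in WT libraries (limma with Benjamini-Hochberg adjustment, adjusted p = 0.00993). Itgax, an integrin subunit, fell with a log2 difference of -1.42, the tetraspanin Cd9 with -1.59, the protease inhibitor Timp2 with -1.80 and the lipid droplet protein Plin2 with -0.72, the call of Plin2 being lost without Ptip_KO replicate 2 (limma with Benjamini-Hochberg adjustment, adjusted p = 0.0554). The other genes that rose were lysosomal and were named after their values were seen: Lipa, the acid lipase, at 181.7 and 162.4 CPM in Ptip_KO libraries against 116.4 and 110.8 CPM in WT libraries, and Ctsl, a cathepsin whose exons overlap other annotated genes, at 36.9 and 35.9 CPM in Ptip_KO libraries against 26.1 and 26.1 CPM in WT libraries. Both calls were lost without either Ptip_KO library (adjusted p of 0.140 and 0.0547 for Lipa and of 0.240 and 0.196 for Ctsl, limma with Benjamini-Hochberg adjustment), which left 1 gene that rose, and without WT replicate 2 there were 9 that fell.

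Over all 10 lists together, 154 distinct pathway genes other than the members were tested, of which 27 fell and 6 rose. That is 17.5% and 3.90% of them, against 3.86% and 2.43% of all tested genes. The range of these counts with 1 library left out is given below, beside the range for all tested genes. By a measure of likeness over the 4 libraries, the distance between log2(CPM + 1) values centred on each gene's mean, the 5 genes nearest to Trem2 were Gm6685 (distance 0.096), Tlcd2 (0.11), Fmn1 (0.11), Anks6 (0.14) and Cbr3 (0.15). Tlcd2 was at 17.3 and 16.0 CPM in Ptip_KO libraries, against 6.01 and 6.57 CPM in WT libraries. Fmn1, which encodes the actin nucleator formin 1, was at 4.68 and 4.14 CPM in Ptip_KO libraries, against 1.38 and 1.37 CPM in WT libraries. Anks6 was at 3.32 and 3.05 CPM in Ptip_KO libraries, against 0.855 and 0.824 CPM in WT libraries. Gm6685 was at 1.48 and 1.21 CPM in Ptip_KO libraries, against 0.0271 and 0.0254 CPM in WT libraries. Cbr3 was at 2.59 and 2.18 CPM in Ptip_KO libraries, against 0.556 and 0.558 CPM in WT libraries. Gm6685, Anks6 and Cbr3 were under 1 CPM in both WT libraries and passed the filter through the Ptip_KO libraries. Their nearness rests on the 1 added to each CPM, since the ratio of means was 51.4 for Gm6685 and 2.42 for Trem2. None of the 5 lies on chromosome 17.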

How the data were processed

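The labels describe 2 Ptip_KO and 2 WT libraries made from poly(A) RNA with a stranded Illumina kit. TopHat2 2.0.10, HTSeq 0.6.0, edgeR 3.8.6 and the build mm10 are named in the submitters' processing notes, and the strand setting of counting is not given in the sources used here. Each gene has a normalized signal, deposited by the authors under the name of edgeR CPM, scaled to effective library sizes. Every value was a whole multiple of what 1 read was worth, so whole reads were recovered (100% within 0.01 read). In its highest library every gene of the table reached 10 reads or more.

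The test was limma 3.58.1 (R 4.3.3), 2-sided, on log2(CPM + 1) of the 12357 genes that reached 1 CPM in 2 or more libraries. It used a variance prior with a trend, genotype as its single term and Benjamini-Hochberg adjustment at 0.05. This scale understates changes of low genes. The recovered reads were also tested with edgeR 4.0.16, which called 660 genes, against 777 in limma, and with DESeq2 1.42.0, which called 1906. Further alternatives were pseudocounts of 0.25 and 5, no filter, a filter at 5 CPM, 2 other scalings, a robust prior, a block for the replicate number, and leaving out each library in turn. With 2 libraries a group, an exact 2-sided permutation test cannot go below p = 0.333. The replicates were not the same library, since a chi-square test of their reads gave 38.2 per degree of freedom within Ptip_KO and 82.1 within WT. The scripts were tested on simulated data.

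The members and lists were chosen with earlier results of these data known. Per list, the genes named were those past the threshold, or the 3 of smallest p where fewer passed, up to 6. After the values were seen, 4 genes filed under a wrong heading (Fcgr2b, Igsf6, Axl and Mertk) were taken out of that list. Positions come from GENCODE M21 on GRCm38, where 92.19% of identifiers carried the same version, and promoters from RefSeq. Near-identical copies were sought with BLAST 2.17.0 at 95% identity over at least 200 bases and 50% of the shorter transcript, and no member had one.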

Additional observations from a re-analysis of the deposited data

How the results depend on the processing

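Trem2 kept its direction and its call in all 14 alternatives, with log2 differences of 1.12 to 1.38. Of the members' values, 109 kept direction and call. Tyrobp passed with the replicate number as a block (adjusted p = 0.0406), which made 2 members higher instead of 1. The values that turned were those of genes without a call: Syk was at -0.010 to 0.15 and Lcp2 at -0.37 to 0.026 with 1 library left out each time, and Cd79a was at 0.40 without WT replicate 2 and -0.99 without WT replicate 1. Among the other named genes, 481 values kept direction and call, 19 lost the call and 14 gained it.

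Genes called higher, 300 in the reported fit, numbered 691 with the replicate block, 780 in DESeq2 and 113 to 700 with 1 library left out. Genes called lower, 477 in the reported fit, numbered 1030 with the block, 1126 in DESeq2 and 339 to 920 with 1 library left out. Pathway genes called higher, 6 in the reported fit, numbered 11 with the block and 1 to 11 with 1 library left out, and those called lower, 27 in the reported fit, numbered 45 in DESeq2 and 19 to 41 with 1 library left out. The cause of these moves was not tested. The replicates share only the number in their titles, and the deposited column of WT replicate 2 carries a different number. The block thus rests on the titles alone. The correlation between the deviations of Ptip_KO replicate 1 and WT replicate 1 was 0.33. Scaling moved the median of all genes by at most 0.050. With 2 libraries a group, the number of libraries and not the depth limits the precision of the members, the lowest read count of a member in any library being 2034, for Tec.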
